A study of Mus musculus with 31 samples.

Results

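The genes described here are 8 genes with which the gut lining answers injury and microbes: Reg3b, Reg3g, Retnlb, Nos2, Duox2, Duoxa2, Saa1 and Saa3. They were found by their gene names in the array files, which gave 10 of the 56605 probes (3 for Duox2 and 1 for each of the others). All 8 genes passed the filter on dim probes and were among the 19797 genes tested. The 31 one-colour arrays each held distal colon RNA of a single young BALB/c mouse. Every mouse received azoxymethane (AOM), a colon carcinogen, and dextran sodium sulphate (DSS) in its drinking water, which injures the colon lining, so the 8 groups share both and no array is from a mouse without DSS. The 4 CRC groups were gavaged with water and the 4 CRC + E171 groups with 5 mg/kg/day of E171, the food-grade titanium dioxide, and colons were taken after 2, 7, 14 and 21 days of exposure. By the labels each group held 2 females and 2 males, except CRC at 21 days with 2 females and 1 male. The p-values measure the spread between these mice. Every level below is a log2 signal relative to the 75th percentile of its array (0 is that percentile), and each standard deviation (SD) or standard error (SE) is on the same scale. Levels are compared between arrays for 1 gene at a time, never between genes.

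Reg3b and Reg3g are secreted C-type lectins that act on bacteria close to the epithelium, and their expression in the gut is known to follow microbial signals and interleukin-22. Retnlb (RELM-beta) is a goblet cell protein with antibacterial action that type 2 cytokines induce. Nos2 is the inducible nitric oxide synthase, made by macrophages and by inflamed epithelium. Duox2 is the hydrogen peroxide-forming dual oxidase of the intestinal epithelium, and it needs its maturation factor Duoxa2 to reach the cell surface. Saa1 and Saa3 are serum amyloid A proteins of the acute phase: Saa1 is made by liver and gut epithelium, and Saa3 also by macrophages and fat cells. In mixed tissue fewer cells of a type and less RNA per cell cannot be told apart.

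Some arrays stood apart by genes other than these 8, and the values are given before the results because most high values of Reg3b, Reg3g and Saa3 came from them. On 3 arrays the mean level of 6 posterior Hox genes, which mark the hind end of the gut, was -5.61 (CRC + E171 7 days female 2), -4.82 (CRC + E171 14 days female 1) and -5.44 (CRC + E171 14 days female 2), where the other 28 arrays lay between -1.55 and 1.54. Of the 6 Hox genes 3, 5 and 3 were well above background on these arrays, so the markers go against the labelled distal position there. On 5 arrays the mean of 7 pancreatic acinar genes was above 0, namely 3.48 (CRC 2 days male 2), 8.0 (CRC + E171 2 days female 2), 5.23 (CRC 7 days female 1), 6.17 (CRC 7 days male 2) and 8.12 (CRC + E171 21 days female 2), and at most -0.93 on the others. On 3 arrays the mean of 8 neutrophil genes was above 2, at 2.76 (CRC 7 days male 1), 3.30 (CRC 7 days male 2) and 2.38 (CRC + E171 14 days male 2), and at most 0.45 on the others. The same 3 arrays had the lowest goblet cell levels, -1.29, 2.15 and 1.5 against 4.70 or more elsewhere. The array labelled CRC 14 days male 2 had an Xist level of -1.58, within the range of the females, where the other males were at -6.51 or lower. Xist thus goes against its label, under which it was kept. In all 10 arrays were in 1 or more of these sets. Without the arrays low in Hox genes CRC + E171 at 14 days keeps only males. Without those rich in neutrophil genes CRC at 7 days keeps only females, so in both cases the arms then differ in sex. The Hox list and the limits of the sets were chosen after the data had been seen.

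The sequence upstream of 4 of the genes is shown because the levels of Reg3b and Reg3g followed each other over the arrays, while those of Saa1 and Saa3 ran in opposite directions. Each run holds the 250 bases before the start of the gene in its own direction, from RefSeq on GRCm38.p6, which held an entry for 6 of the 8 genes (none for Retnlb and Nos2). Capitals mark matches to a STAT motif (TTCNNNGAA), a C/EBP motif (TTGCNNAA) or the NF-kB motif, searched on both strands.
Reg3b (chr6:78370635-78370884, plus strand): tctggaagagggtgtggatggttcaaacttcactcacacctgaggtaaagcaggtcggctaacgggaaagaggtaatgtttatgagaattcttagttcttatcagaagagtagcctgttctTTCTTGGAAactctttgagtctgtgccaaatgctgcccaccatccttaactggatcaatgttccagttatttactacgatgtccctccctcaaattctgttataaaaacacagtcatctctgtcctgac
Reg3g (chr6:78468875-78469124, minus strand): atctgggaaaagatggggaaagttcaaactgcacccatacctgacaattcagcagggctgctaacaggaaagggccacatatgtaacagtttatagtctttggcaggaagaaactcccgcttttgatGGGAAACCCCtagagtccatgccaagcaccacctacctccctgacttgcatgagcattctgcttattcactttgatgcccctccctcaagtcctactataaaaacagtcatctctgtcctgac
Saa1 (chr7:46742981-46743230, minus strand): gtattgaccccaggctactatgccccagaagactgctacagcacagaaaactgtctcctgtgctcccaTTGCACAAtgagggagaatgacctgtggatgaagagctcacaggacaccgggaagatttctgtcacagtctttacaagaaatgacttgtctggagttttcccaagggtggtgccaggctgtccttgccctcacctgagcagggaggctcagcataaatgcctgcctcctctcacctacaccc
Saa3 (chr7:46715677-46715926, minus strand): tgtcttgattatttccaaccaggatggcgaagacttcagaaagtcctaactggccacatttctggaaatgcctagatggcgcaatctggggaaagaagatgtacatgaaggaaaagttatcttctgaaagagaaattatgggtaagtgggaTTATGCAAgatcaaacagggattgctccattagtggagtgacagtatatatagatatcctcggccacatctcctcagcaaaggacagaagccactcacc
Reg3b held 1 STAT match, which starts 129 bases before the gene, and Reg3g held 1 NF-kB match at 123 bases. The 20 bases next to the start were identical in Reg3b and Reg3g, and both carried a TATA box (TATAAA), at 29 and 27 bases. Saa1 and Saa3 each held 1 C/EBP match, at 182 and 99 bases. Of 32841 promoters of the same length, 7.02% held the STAT, 9.57% the C/EBP, 7.25% the NF-kB and 12.4% the TATA letters, so a match is a description and not a site. No match of the first 3 motifs lay in these windows of Duox2 and Duoxa2, 2 genes on opposite strands whose starts lie 673 bases apart.

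The probes that measured Saa1 and Saa3 and 1 of the 3 probes averaged for Duox2 are printed because these genes have close relatives. Their positions are those of the files, on mm9, and whether they lie in an exon or beside it was not analysed here.
Saa1 (chr7:53996070-53996129, minus strand): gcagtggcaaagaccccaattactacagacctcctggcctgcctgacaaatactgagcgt
Saa3 (chr7:53967559-53967618, minus strand): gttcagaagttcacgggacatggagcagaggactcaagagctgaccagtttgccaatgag
Duox2 (chr2:122106173-122106232, minus strand): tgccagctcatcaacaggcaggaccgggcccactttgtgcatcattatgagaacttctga
Saa1 has a neighbour of nearly the same sequence, Saa2, with 238 of 249 aligned upstream bases identical. The levels of the Saa1 and Saa2 probes had an r of 0.947 over the 31 arrays, and how much of either signal came from the other transcript was not tested, so Saa1 is uncertain as a single gene.

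Both lectins were high on a few arrays of several groups rather than in 1 group. Reg3b was well above background on 19 of the 31 arrays, where it ran from -5.43 to 6.73, and the values on the other 12, all at or below -5.96, are background readings with no order. Reg3g was well above background on 31 arrays, and its SD over them (3.31) was the 29th largest of 19797 genes, where the median gene had 0.46. Reg3b measured -7.76, -4.21, -1.66 and -1.54 in CRC and -7.80, 3.62, -4.34 and -5.96 in CRC + E171 after 2 days, females first. After 7 days it measured -3.56, -7.81, -6.37 and 5.82 in CRC and -7.87, 6.42, -8.29 and 1.48 in CRC + E171. After 14 days it was -5.05, -4.05, -0.34 and -8.85 in CRC and 6.73, 6.05, -4.12 and -2.85 in CRC + E171. These groups overlapped at every day, and the highest values of 14 days belonged to both females of CRC + E171. After 21 days it was -5.43, -8.05 and -8.52 in CRC and -7.56, 1.10, -5.24 and -8.04 in CRC + E171. Reg3g followed it closely (r = 0.917 over 31 arrays, 0.911 after subtracting group means), with 6.23 and 4.25 on the females of CRC + E171 at 14 days, 5.76 on CRC 7 days male 2 and 4.27 on CRC + E171 7 days female 2, and with all other arrays at or below 1.38.

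Of the 7 arrays with a Reg3b above 1, all but 1 belonged to these sets. The 3 arrays low in posterior Hox genes held the 3 highest Reg3b values, 6.05 to 6.73, and a Retnlb of 3.05 to 5.70, while their acinar level was -3.83 to -3.30. The same arrays held the 3 highest levels of 6 small intestine genes, 1.49 on CRC + E171 14 days female 1 and -2.19 and -2.27 on the others, close to the next array at -2.44. The 2 arrays other than CRC + E171 14 days female 1 had the highest levels of 6 adipocyte genes (1.98 and 1.99, next 1.84). Another 3, CRC 7 days male 2, CRC + E171 2 days female 2 and CRC + E171 21 days female 2, had a high acinar level. On these Reg1, a pancreatic relative of the Reg3 genes, was 6.18, 7.67 and 7.80, against -7.62 to 4.14 on the others, and Reg3d was 6.14, 3.64 and 4.00 against at most -1.53. On the 21 arrays in none of the 3 sets Reg3b was at most 1.48, and this value belonged to CRC + E171 7 days male 2. Whether the position of the sample, fat or pancreatic tissue had a part in these levels was not tested.

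**Figure D1:**
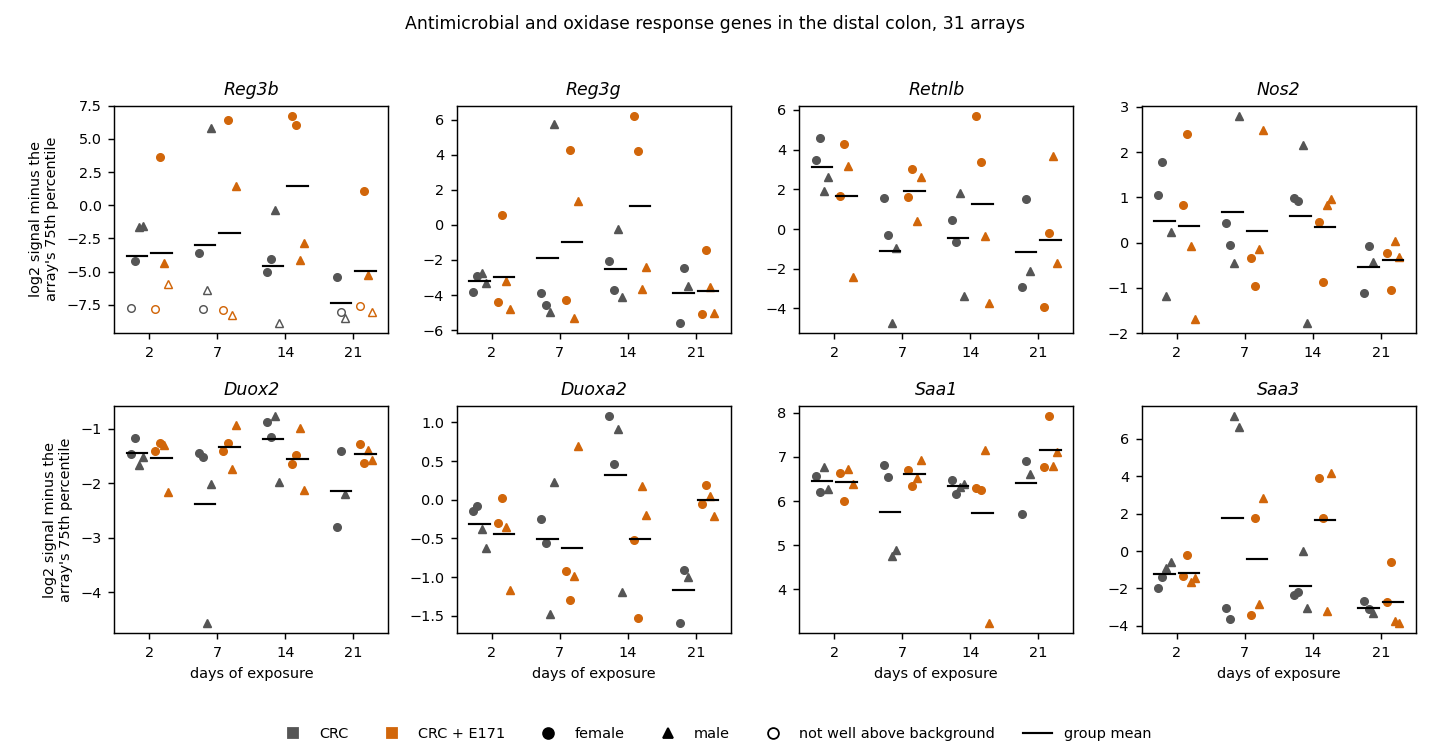
Level of each of the 8 genes on the 31 arrays (vertical axis, log2 signal minus the array's 75th percentile) by days of exposure, with grey CRC and orange CRC + E171 arrays, circles for females, triangles for males and a line at the group mean. Reg3b reaches 6.73, and open symbols mark the 12 arrays on which it was not well above background.

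**Figure D2:**
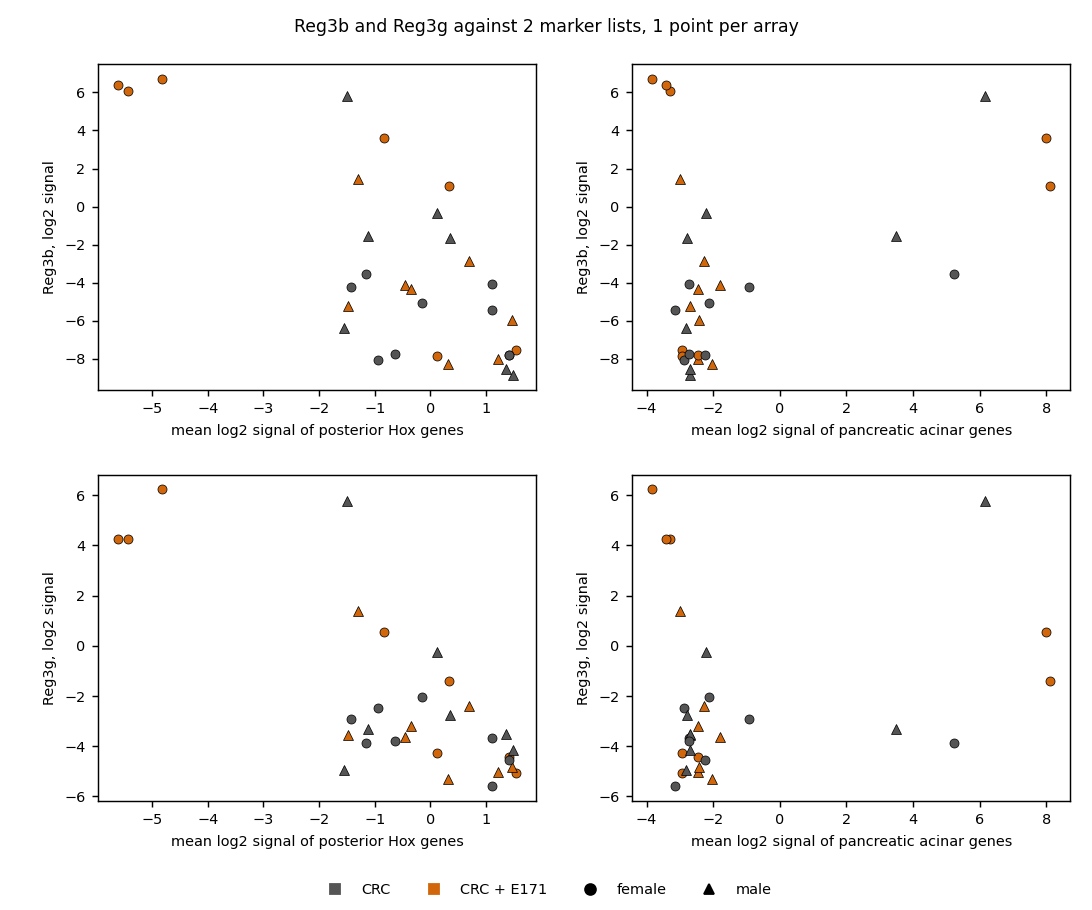
Reg3b (top) and Reg3g (bottom) on each array (vertical axis, log2 signal minus the array's 75th percentile) against the mean of 6 posterior Hox genes (left) and of 7 pancreatic acinar genes (right) on the same scale. The 3 orange circles at the left, with Hox levels of -5.61 to -4.82, hold the 3 highest Reg3b values, and the 5 arrays with an acinar level above 0 range from -3.56 to 5.82.

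E171 did not shift Reg3b or Reg3g beyond the spread between mice on any day. Reg3b had its largest difference after 14 days, 6.03 (SE 3.35, from -4.57 ± 3.5 in CRC to 1.46 ± 5.73 in CRC + E171, SD, n = 4 each, adjusted p = 0.668 in limma, exact permutation p = 0.171). It was higher in 2 of the 4 CRC + E171 mice than in all 4 CRC mice. Without the 3 arrays low in posterior Hox genes the difference at 14 days was 1.09 for Reg3b (SE 3.54) and -0.49 for Reg3g (SE 2.23), against 3.64 (SE 2.25) for Reg3g with all arrays. That set holds both CRC + E171 females of 14 days, so 2 males were left against CRC mice labelled with both sexes. With the scan day as a term the Reg3b difference was 8.54 (adjusted p = 0.651 in limma). On the other days it was 0.17 at 2, 0.91 at 7 and 2.40 at 21 days, and the 95% interval of each of the 4 days included 0. At 2 days 3 of 4 CRC and 2 of 4 CRC + E171 readings were well above background. At 7 days 2 of 4 were in each arm, and at 14 days 3 of 4 and 4 of 4, so the sizes of these differences are uncertain. The value at 7 days turned to -1.92 without CRC + E171 7 days female 2. The value at 21 days was 0.385 without CRC + E171 21 days female 2, an array with acinar genes, and only 1 of the 3 CRC and 2 of the 4 CRC + E171 readings of that day were well above background.

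Retnlb had its highest group mean in CRC after 2 days, while DSS was still given. Its means in CRC were lower at 7, 14 and 21 days without passing the adjusted test. In CRC the levels at 2 days were 3.5 and 4.57 in females and 1.91 and 2.63 in males. At 7 days they were 1.56, -0.30, -4.72 and -0.93, at 14 days 0.45, -0.63, 1.79 and -3.38, and at 21 days -2.93, 1.52 and -2.12. None of the 3 later groups overlapped with 2 days, as was so for 4.7% of all genes at 7, 9.17% at 14 and 10.7% at 21 days, where Duoxa2 and Saa3 did not overlap either. At 14 days the difference from 2 days was -3.59 (SE 1.80, adjusted p = 1.0 in limma). It was -4.25 (SE 1.80) at 7 days and -4.33 (SE 1.94) at 21 days, with adjusted p of 0.239 and 0.901 in limma (unadjusted 0.0262 and 0.0352), so neither passed. Leaving out CRC 7 days male 1, the array with the lowest Retnlb and a goblet level of -1.29, gave -3.04 at 7 days. The other CRC male of that day, with a Retnlb of -0.93, also had a low goblet level (2.15). The part of these goblet levels was not tested. In CRC + E171 the levels at 2 days were 1.65, 4.28, 3.19 and -2.43, those at 7 days were 1.62, 3.05, 0.42 and 2.63, and the difference of 7 from 2 days was 0.26 (SE 1.80). E171 against CRC at 7 days was 3.03 (SE 1.80, adjusted p = 0.394 in limma, exact permutation p = 0.0571), where 3 of the 4 CRC + E171 mice lay above all CRC mice, and 1.82 without CRC 7 days male 1. Its level was 1.80 higher in females than in males over the groups (SE 0.863, adjusted p = 0.561 in limma), and 1.62 without the array labelled CRC 14 days male 2.

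Nos2 was spread within each group, and none of the E171 and day comparisons run for it passed the adjusted test in limma. Its group means ran from -0.54 ± 0.53 (SD, n = 3) in CRC at 21 days to 0.68 ± 1.46 (n = 4) in CRC at 7 days, and 11.4% of its variation lay between groups, against 29.5% in the median gene. The highest arrays were CRC 7 days male 2 (2.80), CRC + E171 7 days male 2 (2.49), CRC + E171 2 days female 2 (2.41) and CRC 14 days male 1 (2.16). CRC 14 days male 2 was lowest at -1.77. The E171 differences were -0.10, -0.42, -0.24 and 0.16 at 2, 7, 14 and 21 days, with an SE of 0.88 to 0.95, and the difference of 21 from 14 days in CRC was -1.12 with a 95% interval of -3.07 to 0.84. Nos2 rose and fell across arrays with the macrophage (r = 0.693), T cell (0.676) and B cell lists (0.647) and ran against the smooth muscle list (-0.606). This is a description over 31 arrays that share slides and groups.

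Duox2 and its partner Duoxa2 each met the fold threshold used here, a linear fold change of 1.5 with an unadjusted p under 0.05, on 1 day, but not the adjusted one. The methods write the fold cut-off on the log2 scale, and a log2 fold of 1.5 was met by neither gene. At 7 days Duox2 was -1.45, -1.52, -4.56 and -2.01 in CRC and -1.41, -1.27, -1.74 and -0.94 in CRC + E171. The groups overlapped, and CRC male 1 lay far below the rest. The difference was 1.05 (SE 0.454, p = 0.0298, adjusted p = 0.254 in limma, exact permutation p = 0.143). Without CRC 7 days male 1 it was 0.32, and without the 3 arrays rich in neutrophil genes 0.15 (SE 0.338). The latter setting left only females in CRC at 7 days. On CRC 7 days male 1 the pan-epithelial level was 1.54, and on CRC 7 days male 2 it was 3.67. It was 4.76 or more on every other array, and the part of these levels in the difference was not tested. The 3 Duox2 probes gave 0.87, 1.29 and 0.99 at 7 days, with exact permutation p of 0.486, 0.0286 and 0.314. The probe with 1.29 varied less like the others (r = 0.676 and 0.689) than they did like each other (0.973). At 21 days the same probe gave 0.84 and the others 0.65 and 0.52, with exact permutation p of 0.0286, 0.2 and 0.229.

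At 21 days the arms did not overlap for Duoxa2, as was so for 7.99% of all genes and for no other member. This is 1 of 8 members, near the share over all genes. Duoxa2 measured -1.59, -0.91 and -0.99 in CRC and -0.06, 0.19, 0.04 and -0.21 in CRC + E171, and did not pass the adjusted test. The difference was 1.16 (SE 0.490, 95% interval 0.15 to 2.17, p = 0.0262, adjusted p = 0.846 in limma), and the exact permutation p of 0.0286 is the smallest that 4 against 3 mice can give. Leaving out any 1 array gave 0.95 to 1.29, and leaving out the 5 arrays with acinar genes gave 1.09 and, like scan day as a term (1.02), no longer met the fold threshold. Its mean was -0.01 ± 0.17 (SD, n = 4) in these E171 mice and -1.17 ± 0.37 (n = 3) in CRC, the lowest of the 8 groups. Within CRC it was 1.48 lower at 21 than at 14 days (SE 0.490, adjusted p = 1.0 in limma), a comparison that shares the CRC arrays of 21 days with the one above. At 14 days 3 of the 4 CRC mice (1.08, 0.46 and 0.91) lay above all CRC + E171 mice (-0.52, -1.53, 0.18 and -0.19), and the fourth, labelled male 2, was at -1.20. Duox2 differed by 0.67 at 21 days (SE 0.491, adjusted p = 0.907 in limma), by 0.33 without CRC 21 days female 1 and by 1.03 without CRC 21 days female 2. The first of these arrays had the 2nd highest level of 6 squamous epithelium genes (2.68) and the lowest goblet level outside the arrays rich in neutrophil genes (4.70). It also had the lowest Duoxa2 of its group and the highest level of 8 smooth muscle genes (3.28), and its part was not tested. Duoxa2 and Duox2 ran against the smooth muscle list over the arrays (r = -0.548 and -0.591). At 21 days the median of that list was 2.7 in CRC and 2.02 in CRC + E171, whose part was not tested. Duoxa2 and Nos2 had an r of 0.714 over the arrays and Duoxa2 and Duox2 of 0.609.

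Saa3 and Saa1 were opposite on the arrays rich in neutrophil genes. On CRC 7 days male 1, CRC 7 days male 2 and CRC + E171 14 days male 2, Saa3 was 7.22, 6.63 and 4.16 and held the 3 highest of 31 values. Saa1 was 4.75, 4.90 and 3.24 on the same arrays and held the 3 lowest. Elsewhere Saa1 kept to 5.71 to 7.92. The first and the third of these arrays also had the 1st and 3rd highest level of 6 squamous epithelium genes (3.77 and 2.46), and all 3 had colonocyte levels of 0.29 or lower against 3.28 or more elsewhere. Lcn2, an iron-binding antimicrobial protein, was 4.79, 5.20 and 0.48 on them and at most -1.49 on the others. They also had the 3 highest levels of 6 fibroblast genes (2.68, 2.55 and 2.71, next 2.05), and the CRC males the highest levels of 8 macrophage genes (1.83 and 2.36, next 1.74). The part of neutrophils, macrophages, fibroblasts, squamous tissue or lost epithelium in these levels was not tested.

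Of the other arrays, those above 1 in Saa3 were CRC + E171 14 days female 1 (3.89), CRC + E171 7 days male 2 (2.85), CRC + E171 7 days female 2 (1.79) and CRC + E171 14 days female 2 (1.77), of which 3 are the arrays low in posterior Hox genes. At 7 days Saa3 was -3.07, -3.63, 7.22 and 6.63 in CRC and -3.41, 1.79, -2.82 and 2.85 in CRC + E171. The CRC females lay far below the CRC males, and the E171 mice ranged from the level of those females to 2.85. The E171 difference was -2.18 (SE 1.92, adjusted p = 0.592 in limma). It turned to 2.95 (SE 1.55, adjusted p = 1.0 in limma) without the 3 arrays rich in neutrophil genes, which left only females in CRC. The difference of this effect between females and males at 7 days was 9.45 (SE 2.80, adjusted p = 0.0692 in limma), so it was not called, beside 3.68% of all genes and 0 of 8 members, and it rests on 2 mice of a sex in each arm. At 14 days the E171 difference of Saa3 was 3.53 (SE 1.92, adjusted p = 0.655 in limma), from -1.88 ± 1.33 to 1.65 ± 3.41 (SD, n = 4 each).

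**Figure D3:**
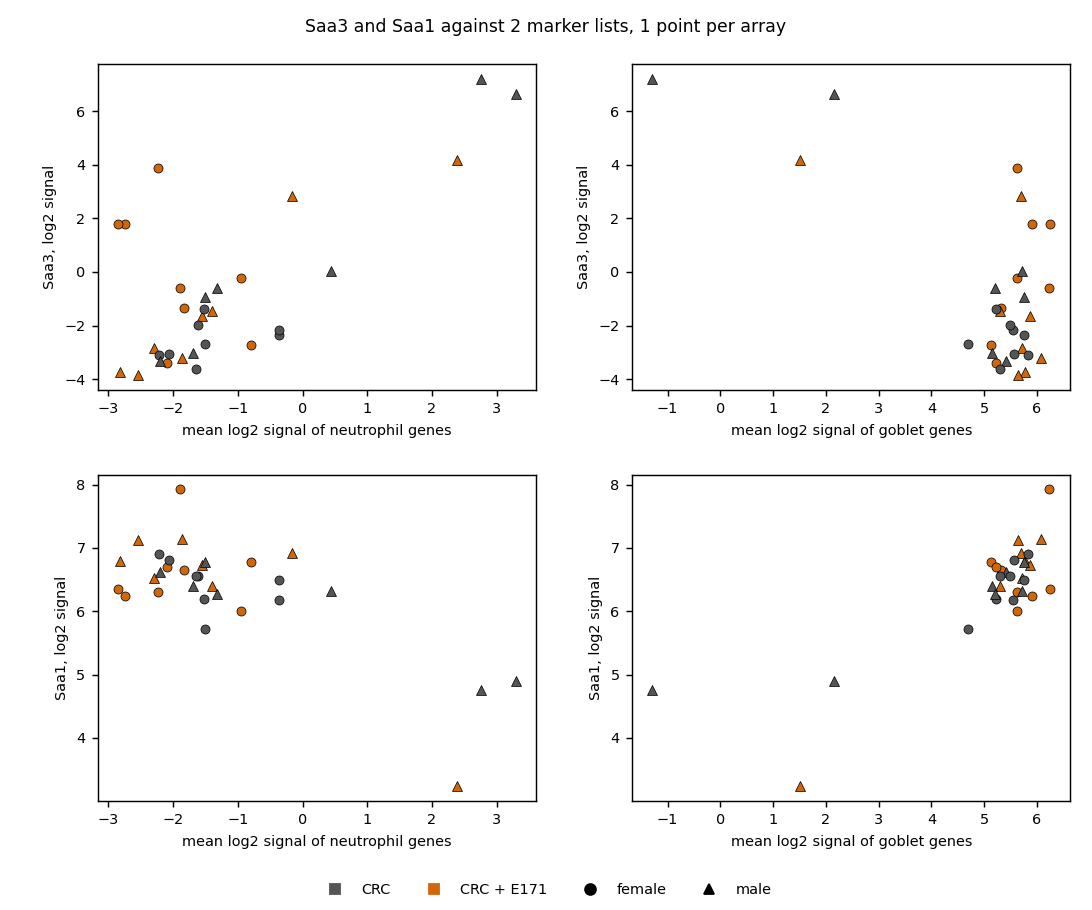
Saa3 (top) and Saa1 (bottom) on each array (vertical axis, log2 signal minus the array's 75th percentile) against the mean of 8 neutrophil genes (left) and of 8 goblet cell genes (right) on the same scale, with grey CRC and orange CRC + E171 arrays. The 3 arrays with a neutrophil level above 2 hold the 3 highest Saa3 and the 3 lowest Saa1 values.

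Saa1 differed by 0.74 with E171 at 21 days (SE 0.588, adjusted p = 0.915 in limma), where its mean of 7.15 ± 0.54 (SD, n = 4) was the highest of the 8 groups, and by 0.40 without CRC 21 days female 1, the array with the squamous level of 2.68. It was 6.78, 7.92, 6.79 and 7.12 there and 5.71, 6.90 and 6.61 in CRC. At 7 days the difference was 0.87 (SE 0.544, adjusted p = 0.424 in limma). Without the 3 arrays rich in neutrophil genes, which left only females in CRC, it was -0.06. Saa2, the neighbour with nearly the same sequence, met the fold threshold at 7 days with 1.87 (SE 0.738, adjusted p = 0.225 in limma), and was 0.076 without the 3 arrays rich in neutrophil genes (SE 0.326). It measured 3.33 and 2.68 on the CRC males and 6.49 to 6.99 on the other 6 mice of that day. Between 14 and 21 days of CRC + E171 Saa1 differed by 1.42 (SE 0.544, adjusted p = 0.189 in limma), and by 0.59 without CRC + E171 14 days male 2.

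Over the 8 genes the comparison of CRC + E171 with CRC gave few calls. With the fold threshold 0 of 8 were called at 2 days, 1 (Duox2) at 7, 0 at 14 and 1 (Duoxa2) at 21 days, where 1.74%, 12.4%, 6.34% and 2.67% of all genes tested were called, so no day held more than 1 member. With a log2 fold of 1.5 in its place 0 of 8 were called on each day, beside 0.298%, 3.34%, 1.72% and 0.333% of all genes. By adjusted p under 0.05 in limma 0 of the 8 genes and 0% of all genes were called on each day (by unadjusted p alone 0, 1, 0 and 1 members, and 548, 3324, 1594 and 1156 genes). The median difference of the 8 genes was -0.04, 0.89, 0.73 and 0.65, beside 0.06, -0.01, 0.02 and 0.02 over all genes. At 21 days all 8 differences were above 0, as were 52.4% of all genes, and the signs of Reg3g, Retnlb, Nos2 and Saa3 turned under other settings or without 1 array. A difference of the E171 effect between the 4 days was called by adjusted p in limma for 0 of 8 members and 0% of all genes (unadjusted p under 0.05 for 1 member, Duoxa2, and 1294 genes).

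**Figure D4:**
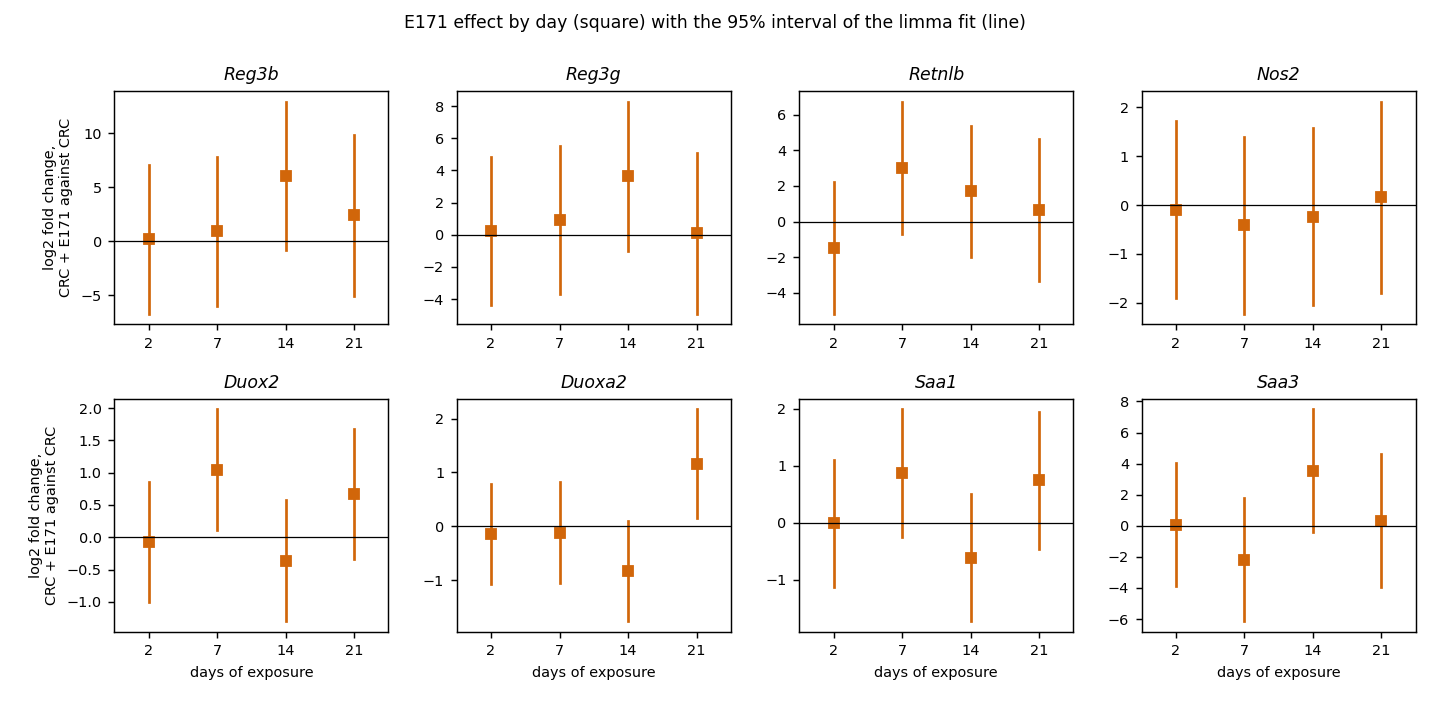
Log2 fold change of CRC + E171 against the CRC mice of the same day (squares) with its 95% interval from the limma fit (lines), by days of exposure. The interval lies above 0 for Duox2 at 7 days (0.11 to 1.98) and Duoxa2 at 21 days (0.15 to 2.17) and includes 0 in the other 30 cases.

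Between days, no member was called by adjusted p in limma in either arm. Mice of 2 days were still on DSS and the later ones were past it, so DSS and time cannot be told apart. In CRC 0 of 8 were called at 7 against 2, 14 against 2, 14 against 7 and 21 against 2 days (0% of all genes) and 0 at 21 against 14 days (0.0101%). In CRC + E171 7 against 2, 14 against 7 and 21 against 2 days called 0 of 8 (0%), and 21 against 14 days called 0 (0.0606%). Unadjusted p under 0.05 were reached in CRC by Retnlb at 7 against 2 days (as by 17.2% of all genes) and at 21 against 2 days (5.46%), by Duox2 at 14 against 7 days (9.82%) and by Duoxa2 at 21 against 14 days (3.89%). In CRC + E171 at 21 against 14 days they were reached by Reg3g (-4.87, SE 2.25), Saa1 and Saa3 (-4.38, SE 1.92), which is 3 of 8 members beside 16.6% of all genes. Without the 3 arrays low in posterior Hox genes, which left only males at 14 days, the Reg3g difference was -0.74 (SE 2.23). It was -3.17 without CRC + E171 14 days female 1 alone. Duox2 was 1.19 higher at 14 than at 7 days of CRC (SE 0.454, adjusted p = 0.486 in limma), and 0.47 without CRC 7 days male 1. Saa3 in CRC + E171 was 3.89, 1.77, -3.20 and 4.16 at 14 days and -2.74, -0.58, -3.74 and -3.85 at 21 days, which overlapped. The arrays of both arms of 1 day were never on the same slide, so that slide and E171 cannot be told apart within a day.

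Means over pairs of days can be taken within slides. The mean E171 effect over 7 and 21 days was 0.80 for Duox2 (SE 0.330, adjusted p = 0.507 in limma) and 0.78 for Saa1 (SE 0.385, adjusted p = 0.507), and 0 of 8 members and 0% of all genes were called. Without the 3 arrays rich in neutrophil genes these effects were 0.346 and 0.315. Leaving out the 5 arrays with acinar genes gave 1.247 for Duox2 (SE 0.33, adjusted p = 0.0722 in limma) and 0.783 for Saa1. With the 3 arrays low in posterior Hox genes left out, these effects were 0.845 and 0.851. Over 2 and 14 days the mean effect on Reg3b was 3.1 (SE 2.33) and 0.63 without the 3 arrays low in posterior Hox genes, again with 0 of 8 and 0% called. Saa3 was 3.31 lower at 21 than at 7 days over both arms (SE 1.46, adjusted p = 0.314 in limma), where 0 of 8 members and 0.0606% of all genes were called. It was 0.743 lower without the arrays rich in neutrophil genes (SE 0.985), which hold both CRC males of 7 days. At 14 against 2 days 0 of 8 and 0.0202% were called. In females against males 0 of 8 members and 0.0556% of all genes passed.

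The order of the 8 group means is given as a description, since neighbours in it are the closest groups by construction. Reg3b and Reg3g were highest in CRC + E171 at 14 days, Reg3g was lowest in CRC at 21 days, Retnlb ran from CRC at 2 to CRC at 21 days, and Duoxa2 from CRC at 14 to CRC at 21 days. Duox2 ran from CRC at 14 to CRC at 7 days, Saa1 from CRC + E171 at 21 to CRC + E171 at 14 days, Saa3 from CRC at 7 to CRC at 21 days and Nos2 likewise. In the exact permutation test 0 of 7 neighbouring pairs of each gene had a p under 0.05, and since a lone pair cannot go below 0.2 once adjusted over 7 pairs, these tests could hardly pass. Between 11.4% (Nos2) and 32% (Duoxa2 and Saa3) of the variation lay between groups.

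The other genes of these pathways were not called by adjusted p in limma in the E171 comparisons of any day. Their 6 lists were chosen with earlier results of these data known, so the shares below are a description. By the fold threshold 30 of the 97 genes in the 6 lists (30.9%) were called at 7 days, beside 12.4% of all genes. Of these, 4 of 20 other antimicrobial genes were up-regulated, led by Zg16 (2.35), a lectin of the mucus layer, and Pigr (2.05), the receptor that carries IgA into the lumen. As many were down-regulated, led by Ltf (-3.96), the iron-binding lactoferrin, and Lcn2 (-3.54). Of 15 other oxidase genes 3 were up-regulated, with Lpo (2.23), lactoperoxidase, and Noxa1 (1.36), an activator of NADPH oxidases, in front, and 1 was down-regulated, Mpo (-0.73), the myeloperoxidase of neutrophils. Of 10 genes of nitric oxide and arginine metabolism 2 were down-regulated, Nos3 (-1.26), the endothelial synthase, and Ddah2 (-0.62). Of 15 other acute phase genes 1 was up-regulated (Saa2) and 3 down-regulated, with Itih4 (-1.96) and Orm3 (-1.74) in front.

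In the list of type 2 and resistin family genes, 1 of 14 was up-regulated at 7 days, Clca1 (4.09) of goblet cells, and 3 were down-regulated, led by Chil3 (-3.84) and Retnlg (-2.40), a resistin-like gene of neutrophils. Of 23 genes of interleukin-22, interleukin-17 and STAT3 signalling 1 was up-regulated, Il22ra1 (1.16), a receptor subunit of epithelium, and 7 were down-regulated, led by the cytokines Il6 (-4.58) and Il11 (-3.28). The adjusted p of the genes named in these lists were 0.197 to 0.294. The median differences of the 6 lists at 7 days were 0.005, -0.21, -0.50, -1.45, -0.48 and -0.76 in the order given, beside -0.01 over all genes. The males of CRC at 7 days, on which neutrophil genes were high and goblet genes low, move with these differences, and their part was not tested. At 14 days 6 genes of these lists (6.19%) were called by the fold threshold, beside 6.34% of all genes, with Defb1 (4.00), a beta-defensin of epithelium, Il13 (1.25), the type 2 cytokine, and Retnla (2.23) as up-regulated and Slpi (-1.27), Apcs (-1.54) and Lyz1 (-0.85) as down-regulated. At 21 days 1 was, Lyz1 (-0.84), which is 1.03% beside 2.67% of all genes, and at 2 days 0 were, beside 1.74%. Within slides Apcs, the serum amyloid P component, was 1.06 lower at 14 than at 2 days (adjusted p = 0.0478 in limma), but with no slide term 0 genes in all were called in that comparison (smallest adjusted p = 0.0929 in limma).

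The difference of the E171 effect between females and males at 7 days was called by adjusted p in limma for 13 of the 97 genes of these lists (13.4%), beside 3.68% of all genes. Since the lists were chosen with earlier results of these data known, these shares are a description. Of the other antimicrobial genes Lcn2 (7.84) and Camp (4.01), a cathelicidin, had the higher difference in females and Lypd8 (-2.33) the lower. Noxo1 (-2.55), an organizer of NADPH oxidases, and Lpo (-5.02) were lower, and 0 of the 10 genes of nitric oxide and arginine metabolism were called. Orm2 (7.80) and Hp (7.65), which codes for haptoglobin, were higher among the acute phase genes, as were Chil3 (7.12) and Retnlg (5.20) in the type 2 list, where Clca1 (-8.58) was lower. Il6 (8.19), Il11 (5.07) and Osmr (2.83), a receptor subunit for oncostatin M, were higher in the interleukin list. These values rest on 2 mice of a sex in each arm, and both CRC males of 7 days are arrays rich in neutrophil genes. In the same comparison 7 of 8 pan-epithelial, 4 of 8 colonocyte and 3 of 8 goblet genes were lower and 2 of 8 neutrophil genes higher, and their part was not tested.

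Genes most like these 8 in their levels over the 31 arrays were sought by Pearson's r, as a description. The mean of the 8 standardized levels was most like Snx20 (0.900), a sorting nexin of blood cells, Ddah1 (0.801), an enzyme that clears an inhibitor of nitric oxide synthases, Serp1 (0.794) and C2cd4b (0.782). Single members were most like Nus1 (0.798, with Reg3b), Gramd3 (0.845, Reg3g), Gm12253 (0.868, Retnlb), Myo1f (0.872, Nos2), Mov10 (0.919, Duox2), Gusb (0.720, Duoxa2), Saa2 (0.947, Saa1) and Angptl4 (0.898, Saa3). Duox2 also followed the goblet (0.793) and pan-epithelial lists (0.786), and Saa1 the goblet (0.800) and colonocyte lists (0.794), while Saa3 followed the neutrophil list (0.699) and ran against the colonocyte list (-0.731). Reg3b and Reg3g ran against the posterior Hox list (-0.747 and -0.776). The arrays of a slide or group are not independent, and the 3 arrays low in Hox genes stand apart in the last of these. So do the 3 arrays rich in neutrophil genes in those of Saa1 and Saa3, and CRC 7 days male 1 in those of Duox2 (-4.56).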

How the data were processed

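RNA was hybridised to one-colour Agilent arrays (8 slides, 3 scan days). Per the file headers, the deposited intensity of each spot is the scanner software's processed signal, background-subtracted and not normalized between arrays. The authors also deposited a log2 matrix, normalized by a method not given in the sources used here, and it holds no Reg3b; it served as an alternative. The submitters' processing notes name limma.

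The log2 of the processed signal minus that of the array's 75th percentile was used, without outlier spots. The filter on dim probes asked for 1 group or more with a mean log2 signal of at least 4 in which 60% or more of the arrays had an unflagged spot clearly brighter than background (the scanner's own call). Probes of a gene were averaged, which gave 19797 genes, named by RefSeq accession, symbol or synonym. One limma fit (3.58.1, R 4.3.3) over the 8 groups gave the E171 and day comparisons, with Benjamini-Hochberg adjustment over all genes. Further limma fits had slide as a term, an additive term for sex, or 16 groups of arm, day and sex. The script was tested on simulated data. Single genes also had a two-sided exact permutation test over arrays. The number of arrays limits the precision.

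The members, the 6 lists of other pathway genes and the cell type markers were chosen with earlier results of these data known. Named from each list are, of the genes that met the fold threshold, the 2 that rose most and the 2 that fell most, and by likeness the top genes by Pearson's r. For the difference between sexes and the comparisons within slides, the genes named are those called by adjusted p in limma. A marker level is the mean over a list's genes. Alternatives were quantile normalization, normexp background with an offset of 50, no filter, the authors' values, the probe with the highest mean, slide as a random block, scan day as a term, a replicate block, a trended robust prior, and leaving out each array. Leaving out the 3 sets of arrays that stood apart, the log2 reading of the fold cut-off and CRC at 14 against 2 days were added after the data had been seen. The fold threshold, a linear 1.5, is a reading of the methods, which write the cut-off on the log2 scale.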

Additional observations from a re-analysis of the deposited data

Results flagged for a closer look

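In 56 tests of a gene in a group of 4 arrays, 2 single arrays lay far from the other 3 by Dixon's criterion, where chance gives about 2.8 (1 in 20 groups). Reg3g on CRC 7 days male 2 was 5.76, and the gap to the next array took a share of 0.9 of the group's range. The same array had acinar and neutrophil levels of 6.17 and 3.30 and a Reg1 level of 6.18, whose part in the Reg3g level was not tested. Duox2 on CRC + E171 2 days male 2 was -2.16, with a gap share of 0.837. Its other 3 arrays lay between -1.40 and -1.26.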

How the results depend on the processing

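By adjusted p, 0 members were called in the E171 and day comparisons under every alternative run. The counts by fold change and unadjusted p moved. At 7 days (1 with all arrays) the count was 0 with the authors' values, with the probe of highest mean, without the 3 arrays low in posterior Hox genes and without the 3 arrays rich in neutrophil genes, and 0 to 2 without 1 array. At 14 days (0) it was 3 with scan day as a term, 1 without the 5 arrays with acinar genes, 2 without the neutrophil-rich arrays, and 0 to 4 without 1 array. At 21 days (1) it was 0 with scan day, 0 without the acinar arrays, 3 without the neutrophil-rich arrays, and 0 to 2 without 1 array. With a log2 fold of 1.5 it was 0 at 7 and 0 at 21 days. Why the other counts moved was not tested.

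The sign of some log2 differences turned. With scan day as a term, Reg3b was -2.35 at 2 days and -0.11 at 7 days, Reg3g -1.48, Saa1 0.069 and Saa3 -0.94 at 2 days, Duoxa2 0.032 at 7 days and Nos2 -0.086 at 21 days. Without the acinar arrays, Reg3b was -1.49, Reg3g -0.99, Saa1 0.08 and Saa3 -0.034 at 2 days, Nos2 0.52 and Duoxa2 0.39 at 7 days, and Reg3g -0.69 and Saa3 -0.40 at 21 days. Without the arrays low in Hox genes, Reg3b was -1.92, Reg3g -0.83 and Duoxa2 0.11 at 7 days, and Reg3g -0.49, Retnlb -1.60 and Nos2 0.32 at 14 days. Without the neutrophil-rich arrays, Nos2 was 0.076, Saa1 -0.062 and Saa3 2.95 at 7 days, and Saa1 0.22 at 14 days. Quantile normalization gave Reg3b -0.002 and the authors' values gave Duox2 0.39, both at 2 days.

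Leaving out 1 array gave both signs at 2 days for Reg3b (-2.24 to 1.56), Reg3g (-0.95 to 0.85), Nos2 (-0.78 to 0.59), Duox2 (-0.17 to 0.13), Duoxa2 (-0.30 to 0.10), Saa1 (-0.10 to 0.14) and Saa3 (-0.25 to 0.28). At 7 days it did for Reg3b (-1.92 to 3.85), Reg3g (-0.83 to 3.48), Nos2 (-1.16 to 0.29) and Duoxa2 (-0.56 to 0.13), at 14 days for Nos2 (-1.02 to 0.29) and Saa1 (-1.08 to 0.22), and at 21 days for Reg3g (-0.77 to 0.78), Retnlb (-0.78 to 1.98), Nos2 (-0.13 to 0.39) and Saa3 (-0.40 to 0.69).

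With the labelled sex and replicate number as a replicate block, Saa3 at 21 days was -0.10, and the block changed no count of members called (1 at 7 and 1 at 21 days). The labels do not say that the numbers pair mice. Same-numbered arrays of both arms had correlations of 0.479, 0.237 and 0.208 at 21 days, where Duoxa2 was 1.18 with the block (SE 0.525, adjusted p = 0.596 in limma). They were -0.00418 to 0.433 at 2, -0.108 to 0.371 at 7 and -0.182 to 0.0608 at 14 days. Normexp background moved the median of all genes by 0.116, 0.103 and 0.109 at 2, 14 and 21 days, and the authors' values by -0.102 at 21 days. Reg3b was not well above background on 12 of 31 arrays, where its level follows the background.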
